A study of Mus musculus with 6 samples.

Results

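The C-type lectins, Siglecs, Fc receptors, Trem receptors and their relatives are cell surface proteins through which blood cells read sugars, antibodies, lipids and dying cells. They were followed in mouse bone marrow cells that make stem cell factor and in unselected marrow. Members were taken by gene symbol: C-type lectins (Clec followed by a digit), Siglecs, IgG and IgE receptor chains (Fcgr and Fcer, without Fcer1a), Trem, Lilr, Cd300 and Cd200 genes, together with Cd33, Tyrobp and Hcst. The rule found 71 genes among the 19938 genes that the array annotation names by a single symbol. A further 4 rows of the table list several symbols of which at least 1 meets the rule, and these were not analysed here.

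RNA was measured on 6 Affymetrix Mouse Gene ST 1.0 arrays, whose probes lie along the whole transcript. In the first group, 3 arrays carried RNA of Scf-GFP+ cells from mice heterozygous for a green fluorescent protein knocked into the stem cell factor gene Kitl, which leaves 1 unmodified Kitl allele. In the second, 3 arrays carried RNA of unselected bone marrow cells of wild-type animals. All mice were young adults on a C57BL/6 background, and each array started from 5000 cells sorted into Trizol, the Scf-GFP+ cells by a double sort. Population, genotype and sorting passes therefore changed together and cannot be told apart. Xist, a sex-linked transcript, also set Scf-GFP+ replicates 1 and 2 apart from Scf-GFP+ replicate 3 and all marrow arrays. Its signal thus overlaps in part with group. The labels do not say whether the aliquots of a group came from separate animals, so that p-values cover only the spread seen among these arrays.

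Many of these receptors work in pairs of opposite effect. Activating receptors have short tails and borrow the signalling motif (ITAM) of a small adaptor, Tyrobp (DAP12) or the Fc receptor gamma chain Fcer1g, which recruits the kinase Syk, while the adaptor Hcst (DAP10) recruits phosphatidylinositol 3-kinase. Inhibitory receptors carry their own motif (ITIM), which recruits the phosphatases Ptpn6 and Inpp5d. Most members are known from neutrophils, monocytes, macrophages, dendritic cells or B cells, but a few lectins act outside blood: Clec11a is a secreted growth factor of the bone marrow stroma in mice, and Clec14a is a protein of endothelial cells.

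The deposited values are log2 intensities, in which a difference of 1 is 2-fold, and no level is set against that of another gene. Both populations showed the markers their labels call for. All 6 stromal markers listed for the sorted cells were called higher, with list means per array of 11.18 to 11.25 in Scf-GFP+ cells and 5.61 to 5.69 in whole marrow. All 8 pan-haematopoietic markers were called lower, with list means of 5.94 to 6.94 in Scf-GFP+ cells and 10.08 to 10.32 in whole marrow. One Scf-GFP+ array stood apart in neutrophil transcripts. Over 10 neutrophil markers the mean was 9.43 in Scf-GFP+ replicate 1, 6.02 in replicate 2 and 6.16 in replicate 3, against 11.96 to 12.03 in whole marrow, and 8 of the 10 exceeded the mean of replicates 2 and 3 by at least 1 in replicate 1. Of the 8 pan-haematopoietic markers 4 did so (Ptprc by 2.79, Laptm5 by 1.74, Coro1a by 1.42 and Cd53 by 1.33), and of 11 macrophage and monocyte markers and 5 B cell markers none. RMA values have no zero, so no marker can be given as absent.

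Most members that differed were lower in the stromal cells. A gene was called at a limma adjusted p below 0.05, over all 19938 genes, with a difference of at least 2-fold. By this rule 37 of the 71 members were called lower in Scf-GFP+ cells (52.1%, against 7.89% of all genes), 4 were called higher (5.63%, against 9.01% of all genes) and 30 were not called. The median difference, Scf-GFP+ minus whole marrow, was -1.37 over the members and -0.08 over all genes. All Scf-GFP+ arrays lay below all whole marrow arrays for 48 members (26.4% of all genes did so) and above them for 5 (19.0% of all genes). The 37 members called lower had differences of -1.30 to -5.70, and 10 of them were lower by at least 4 on the log2 scale. In bulk samples, fewer cells of a type and less RNA per cell cannot be told apart.

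**Figure D1:**
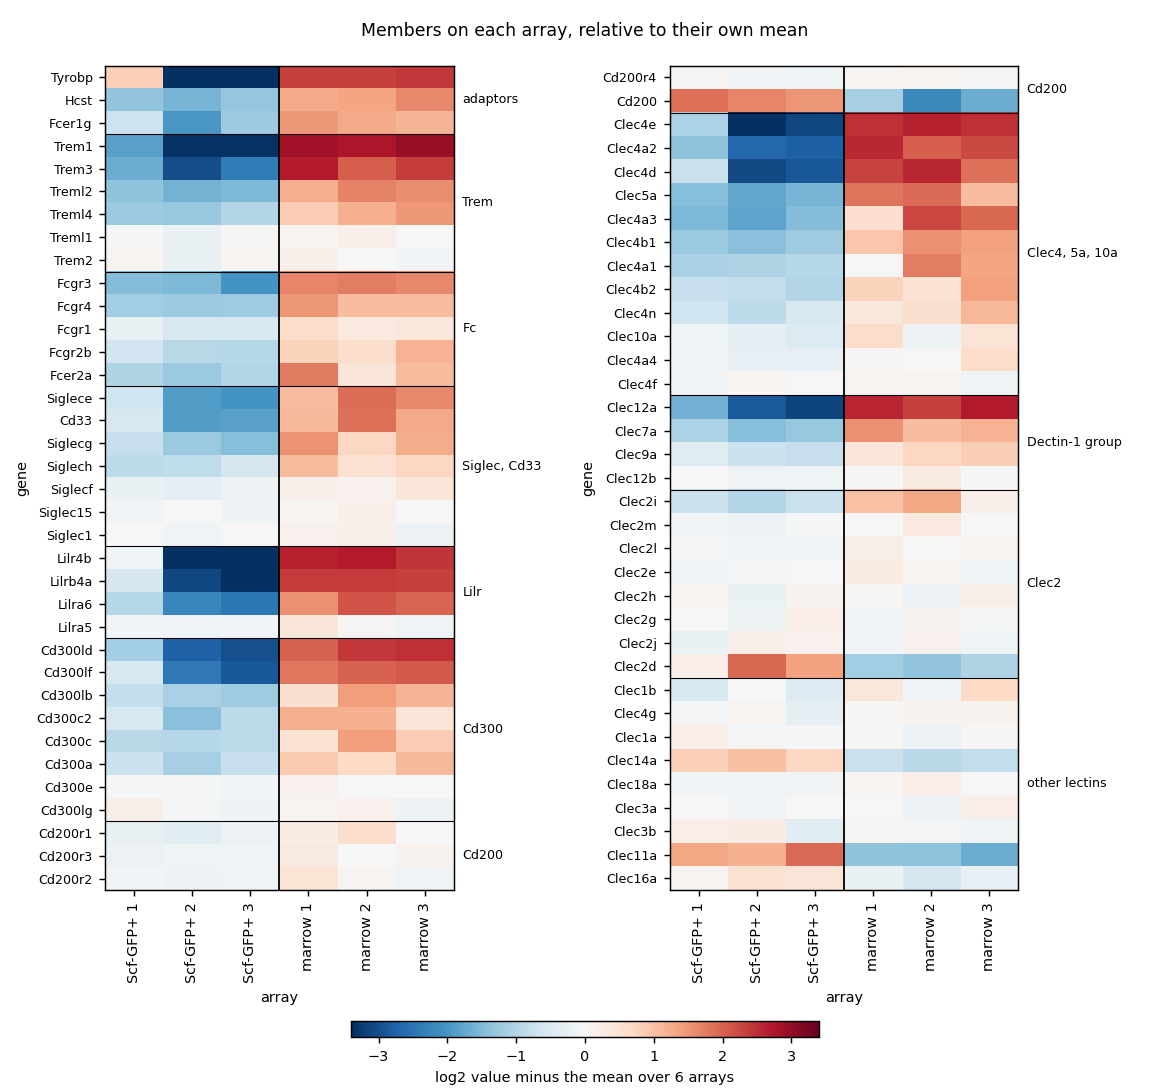
Each row is 1 of the 71 members and each column 1 array, Scf-GFP+ on the left and whole marrow on the right of the black line; the colour is the log2 value minus that gene's mean over the 6 arrays. The 4 members called higher (Cd200, Clec11a, Clec14a, Clec2d) are red on the left. The 37 called lower are blue on Scf-GFP+ replicates 2 and 3. On replicate 1 Tyrobp is above its own mean and so red, Lilr4b is close to its mean, and the others called lower are blue. Tyrobp, Lilr4b, Lilrb4a and Lilra6 are among those that differ between Scf-GFP+ replicate 1 and replicates 2 and 3.

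The members with the largest changes are shown by the start of their genes. RefSeq promoter windows of 300 bases were at hand for 56 of the 71 members, in 63 windows, and the 3 largest decreases and 2 largest increases among these are printed 5′ to 3′ on the strand of the gene. Capitals mark GAGGAA or its reverse complement TTCCTC, the core letters of sites for PU.1 and related Ets factors, which act in blood and elsewhere. Trem1 lies at chr17:48232489-48232788 (GRCm38.p6, + strand), Lilr4b at chr10:51480362-51480661 (+), Clec4e at chr6:123289822-123290121 (-), Cd200 at chr16:45409004-45409303 (-) and Clec11a at chr7:44306910-44307209 (-).
Trem1: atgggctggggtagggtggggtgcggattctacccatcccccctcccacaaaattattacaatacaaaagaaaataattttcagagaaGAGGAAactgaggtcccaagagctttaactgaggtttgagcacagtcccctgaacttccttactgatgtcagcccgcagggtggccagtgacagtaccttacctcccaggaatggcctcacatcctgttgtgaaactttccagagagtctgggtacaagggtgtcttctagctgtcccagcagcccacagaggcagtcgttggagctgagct
Lilr4b: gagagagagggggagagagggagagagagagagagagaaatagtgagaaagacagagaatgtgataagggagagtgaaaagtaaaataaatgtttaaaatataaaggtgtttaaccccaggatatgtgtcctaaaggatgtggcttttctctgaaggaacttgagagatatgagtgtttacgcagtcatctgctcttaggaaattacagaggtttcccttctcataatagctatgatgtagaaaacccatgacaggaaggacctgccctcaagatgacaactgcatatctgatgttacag
Clec4e: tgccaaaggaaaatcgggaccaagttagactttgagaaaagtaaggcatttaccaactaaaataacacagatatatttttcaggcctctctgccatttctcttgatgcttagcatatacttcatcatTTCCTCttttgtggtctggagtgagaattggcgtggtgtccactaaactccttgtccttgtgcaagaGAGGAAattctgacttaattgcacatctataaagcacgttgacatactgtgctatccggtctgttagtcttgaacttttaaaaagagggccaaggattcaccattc
Cd200: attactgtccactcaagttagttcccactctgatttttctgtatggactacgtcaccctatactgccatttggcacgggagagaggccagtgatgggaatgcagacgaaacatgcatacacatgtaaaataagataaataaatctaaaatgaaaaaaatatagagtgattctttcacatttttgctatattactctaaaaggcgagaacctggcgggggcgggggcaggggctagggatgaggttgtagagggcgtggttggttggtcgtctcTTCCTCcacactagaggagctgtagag
Clec11a: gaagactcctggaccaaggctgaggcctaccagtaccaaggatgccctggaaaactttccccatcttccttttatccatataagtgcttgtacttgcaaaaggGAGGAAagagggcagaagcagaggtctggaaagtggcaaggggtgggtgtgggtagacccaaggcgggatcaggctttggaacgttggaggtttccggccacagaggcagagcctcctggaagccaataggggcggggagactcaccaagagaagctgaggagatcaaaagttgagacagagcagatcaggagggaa
The letters occurred in at least 1 window of 22 of the 32 members called lower that had one, of 3 of the 4 called higher and of 10 of the 20 not called. Together these were 35 of 56 members (62.5%), beside 30.2% of all genes tested that had a window, 31.5% of all genes called higher and 35.1% of all genes called lower. Some members are close copies that share the letters around a match, such as Clec4b1 and Clec4b2, so the members are not independent of each other. A match is a description of the letters, not a site.

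The 3 signalling adaptors were all called lower in Scf-GFP+ cells (100%, against 7.89% of all genes), with very different spreads. Hcst measured 7.46, 7.21 and 7.47 in Scf-GFP+ replicates 1, 2 and 3, against 10.07, 10.13 and 10.42 in whole marrow replicates 1, 2 and 3. It was evenly low in the stromal arrays, with a difference of -2.83 ± 0.14 SE and 7.09-fold less signal (limma adjusted p = 2.19e-05). Fcer1g measured 8.35, 7.08 and 7.84 in the Scf-GFP+ arrays, replicates 1 to 3 in that order, and 10.54, 10.36 and 10.23 in the whole marrow arrays, a difference of -2.62 ± 0.31 (limma adjusted p = 0.00108). Tyrobp measured 10.95, 6.06 and 6.32 in Scf-GFP+ replicates 1, 2 and 3, against 12.44, 12.45 and 12.54 in whole marrow. Its groups did not overlap, but replicate 1 lay 4.76 above the mean of the other two, the largest such gap among the members. The difference of Tyrobp was -4.70 ± 1.24 (limma adjusted p = 0.0319). It was -6.29 without Scf-GFP+ replicate 1 (limma adjusted p = 1.79e-05), and the call was lost when any other single array was left out (limma adjusted p = 0.0826 to 0.0919 in those 5 fits, 1.79e-05 to 0.0919 over all alternatives).

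Tyrobp was one of 14 members that exceeded the mean of Scf-GFP+ replicates 2 and 3 by at least 1 in replicate 1, which 1.48% of all genes did. The others were Lilr4b (3.68), Lilrb4a (2.69), Clec4d (2.22), Clec4e (2.19), Cd300lf (2.10), Cd300ld (1.73), Trem1 (1.504), Lilra6 (1.38), Clec4a2 (1.37), Clec12a (1.37), Cd33 (1.32), Siglece (1.30) and Trem3 (1.05). All 14 were called lower, and with replicate 1 left out all 37 lower and all 4 higher calls were kept. Without that array the difference of Lilr4b was -6.41 (84.9-fold lower), that of Trem1 -6.20 (73.7-fold) and that of Clec4e -5.80 (55.6-fold). The sizes of these decreases are thus smaller with it. On Scf-GFP+ replicates 2 and 3 these genes lay below the first quartile of the array (5.19 to 5.31), where arrays lose resolution. This limits how exactly their folds are sized. For the other 10 members without that array, the differences were -5.61 for Lilrb4a, -5.52 for Clec12a, -5.23 for Clec4d, -5.16 for Cd300ld, -5.09 for Trem3, -5.01 for Clec4a2, -4.61 for Cd300lf, -4.24 for Lilra6, -3.49 for Siglece and -3.29 for Cd33. The values of Lilr4b and Tyrobp also moved by over 1.5-fold the other way, to -4.59 and -3.85 without Scf-GFP+ replicate 2 and to -4.55 and -3.98 without replicate 3. Of the 10 neutrophil markers 8, and of the 8 pan-haematopoietic markers 4, were also raised by at least 1 in replicate 1. The neutrophil markers Elane and Mpo had gaps of only 0.30 and 0.31. The part of these markers in the gaps of the members was not tested. Fcgr3, Hcst, Clec7a, Treml2 and Clec5a, also called lower, had gaps of 0.31, 0.12, 0.28, 0.18 and 0.23.

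**Figure D2:**
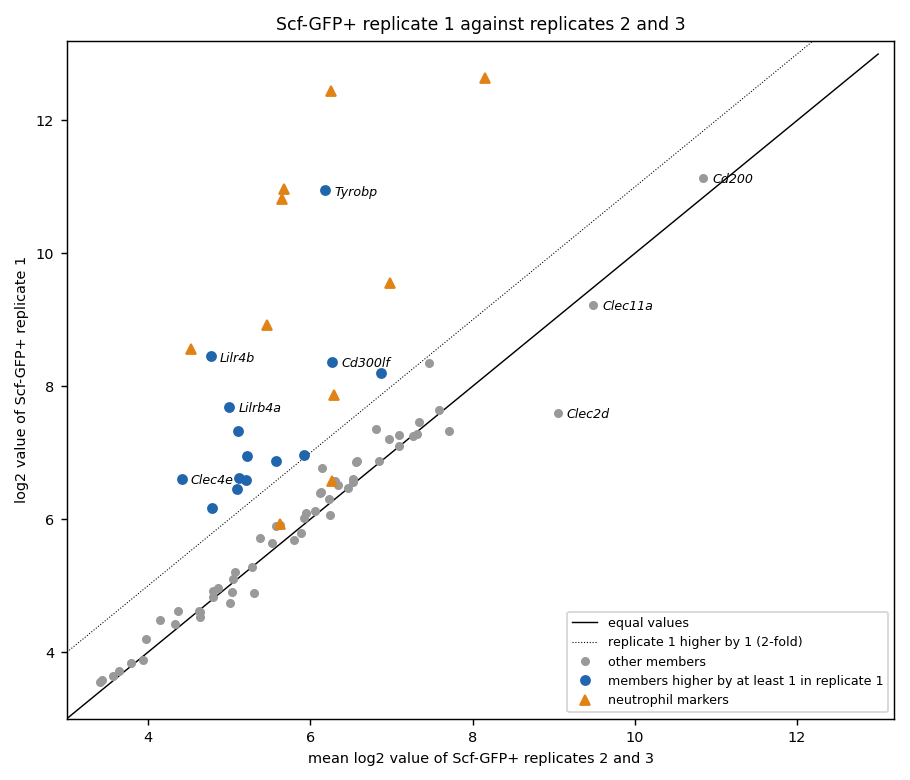
Each point is a gene, with the mean log2 value of Scf-GFP+ replicates 2 and 3 on the horizontal axis and the log2 value of replicate 1 on the vertical axis. The 14 blue members and 8 of the 10 neutrophil markers (orange) lie on or above the dotted line of a gap of 1, while the other members (grey) lie below it, with gaps from -1.44 (Clec2d) to 0.89 (Fcer1g).

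Among the Trem receptors, 4 of 6 were called lower (66.7%, against 7.89% of all genes). The pair known from platelets and from osteoclasts and microglia did not pass. Trem1, which amplifies inflammatory responses of neutrophils and monocytes through Tyrobp, measured 6.62, 5.11 and 5.12 in Scf-GFP+ replicates 1, 2 and 3, against 11.34, 11.21 and 11.42 in whole marrow replicates 1, 2 and 3. All stromal arrays were more than 4 below any marrow array, and the difference of -5.70 ± 0.40 (52.1-fold lower, limma adjusted p = 0.000103) had rank 12 among all genes lower in Scf-GFP+ cells. Trem3, another Tyrobp-coupled receptor of mouse macrophages, measured 6.97, 5.62 and 6.23 in Scf-GFP+ replicates 1, 2 and 3, against 11.33, 10.70 and 11.03 in whole marrow (-4.74 ± 0.35). Treml2, found on B cells and myeloid cells, measured 6.52, 6.30 and 6.38 in Scf-GFP+ cells and 9.12, 9.58 and 9.48 in whole marrow, a difference of -2.996 ± 0.15 with little spread. Treml4, a myeloid receptor that takes part in Toll-like receptor signalling in mice, measured 5.79, 5.73 and 6.04 in Scf-GFP+ cells, against 7.89, 8.25 and 8.50 in whole marrow (-2.36 ± 0.18). Adjusted p values of these 4 genes lay between 2.31e-05 and 0.000143 by limma. Trem2, a lipid and lipoprotein receptor, measured 7.27, 6.92 and 7.26 in Scf-GFP+ cells and 7.35, 7.19 and 7.10 in whole marrow, and these ranges overlapped (-0.06 ± 0.14, limma adjusted p = 0.77). The platelet protein Treml1 differed by -0.16 ± 0.11 (limma adjusted p = 0.361).

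**Figure D3:**
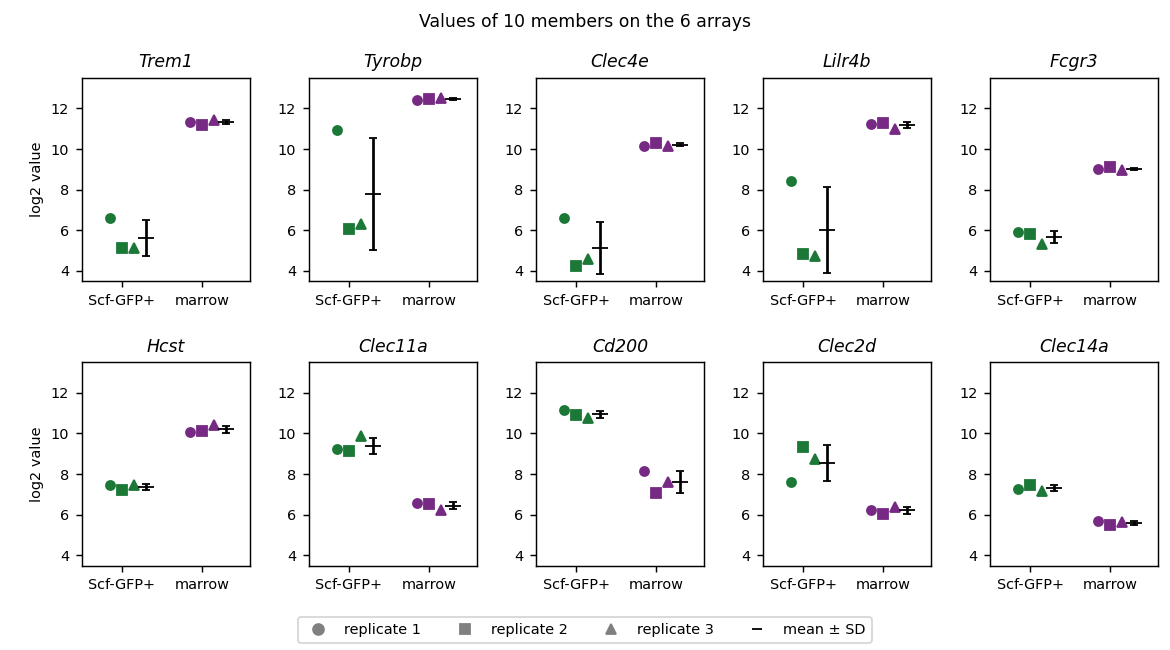
Log2 values of 10 members are plotted for 3 Scf-GFP+ arrays (green) and 3 whole marrow arrays (purple), with circles, squares and triangles for replicates 1, 2 and 3 and a bar for mean ± SD (n = 3). The groups do not overlap in any panel; Tyrobp, Lilr4b, Clec4e and Trem1 have a raised Scf-GFP+ replicate 1, and Clec11a, Cd200, Clec2d and Clec14a are higher in Scf-GFP+ cells.

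The Fc receptors bind antibody. Of the 5 chains, 4 were called lower (80%, against 7.89% of all genes). For all 5 the Scf-GFP+ arrays lay below all whole marrow arrays, which 26.4% of all genes did. Fcgr3, an activating receptor of low affinity for IgG, measured 5.89, 5.82 and 5.34 in Scf-GFP+ replicates 1, 2 and 3, against 9.01, 9.10 and 8.995 in whole marrow replicates 1, 2 and 3. It was low in every stromal array and differed by -3.35 ± 0.17 (10.2-fold lower, limma adjusted p = 2.15e-05). The other activating receptor of this neighbourhood, Fcgr4, measured 5.10, 5.03 and 5.06 in Scf-GFP+ cells, against 7.78, 7.33 and 7.33 in whole marrow (-2.41 ± 0.15). Fcgr2b, the inhibitory receptor for IgG, measured 6.86, 6.58 and 6.54 in Scf-GFP+ cells and 8.31, 8.12 and 8.69 in whole marrow (-1.71 ± 0.18), so both the activating and the inhibitory chain were lower. Fcer2a, the IgE receptor CD23 of B cells, measured 4.42, 4.20 and 4.46 in Scf-GFP+ cells, against 7.22, 5.86 and 6.52 in whole marrow, where it varied more than in the stromal arrays (-2.18 ± 0.32). The high-affinity receptor Fcgr1 passed limma's adjusted p (0.00331) but not the 2-fold minimum, at -0.89 ± 0.13.

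Siglecs bind sialic acid, and most carry inhibitory motifs. With Cd33 there were 7, of which 4 were called lower (57.1%, against 7.89% of all genes). Siglece, an inhibitory receptor of neutrophils and macrophages, measured 6.87, 5.64 and 5.52 in Scf-GFP+ replicates 1, 2 and 3, against 8.59, 9.44 and 9.18 in whole marrow replicates 1, 2 and 3. Replicate 1 was the highest stromal array but lay below every marrow array (-3.06 ± 0.40, limma adjusted p = 0.00172). Cd33 measured 8.20, 6.84 and 6.90 in Scf-GFP+ replicates 1, 2 and 3, against 9.85, 10.60 and 10.03 in whole marrow (-2.85 ± 0.40, limma adjusted p = 0.00231). Siglecg, which restrains B cell receptor signalling, measured 7.36, 6.90 and 6.72 in Scf-GFP+ cells and 9.69, 8.86 and 9.41 in whole marrow (-2.33 ± 0.26). Siglech, a receptor of plasmacytoid dendritic cells that couples to Tyrobp, measured 6.07, 6.09 and 6.38 in Scf-GFP+ cells, against 8.04, 7.48 and 7.65 in whole marrow (-1.54 ± 0.18). Of the remainder, Siglecf of eosinophils passed the adjusted p (0.0279, limma) without reaching 2-fold (-0.47 ± 0.12), and the macrophage receptor Siglec1 (-0.09 ± 0.13) and Siglec15 of osteoclasts (-0.19 ± 0.10) did not pass.

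The Lilr and Cd300 families hold activating and inhibitory receptors side by side, and members of both kinds were called lower. Of 4 Lilr genes, 3 were called lower (75%, against 7.89% of all genes). Lilr4b and Lilrb4a are adjacent, near-identical genes (gp49A and the inhibitory gp49B), so which copy a probe set measured is uncertain. Lilr4b measured 8.45, 4.82 and 4.73 in Scf-GFP+ replicates 1, 2 and 3, against 11.24, 11.29 and 11.01 in whole marrow replicates 1, 2 and 3. Replicate 1 stood between the other stromal arrays and the marrow, and the difference was -5.18 ± 0.96 (limma adjusted p = 0.008). Lilrb4a measured 7.69, 5.16 and 4.85 in Scf-GFP+ replicates 1, 2 and 3, against 10.63, 10.64 and 10.57 in whole marrow (-4.71 ± 0.71). Lilra6, a paired receptor that couples to Fcer1g and has close copies, measured 6.17, 4.91 and 4.67 in Scf-GFP+ cells and 8.68, 9.29 and 9.12 in whole marrow (-3.78 ± 0.40). Lilra5 differed by -0.20 ± 0.16 and was not called.

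Of 8 Cd300 genes, 6 were called lower (75%, against 7.89% of all genes). Cd300ld, an activating receptor of neutrophils, measured 6.95, 5.34 and 5.10 in Scf-GFP+ replicates 1, 2 and 3, against 10.10, 10.49 and 10.56 in whole marrow replicates 1, 2 and 3. The stromal arrays lay at least 3 below the marrow arrays (-4.59 ± 0.47, limma adjusted p = 0.00058). Cd300lf, an inhibitory lipid receptor, measured 8.37, 6.50 and 6.04 in Scf-GFP+ replicates 1, 2 and 3, against 10.70, 10.92 and 10.99 in whole marrow (-3.91 ± 0.57, limma adjusted p = 0.00272). Cd300lb, an activating receptor that couples to Tyrobp, measured 5.72, 5.44 and 5.33 in Scf-GFP+ cells and 7.08, 7.96 and 7.69 in whole marrow (-2.08 ± 0.24). Cd300c2 measured 6.77, 5.89 and 6.39 in Scf-GFP+ cells, against 8.52, 8.51 and 7.73 in whole marrow (-1.90 ± 0.30). Smaller decreases were called for Cd300c (-1.88 ± 0.23) and for the inhibitory Cd300a (-1.77 ± 0.17). Cd300e (-0.11 ± 0.10) and Cd300lg, which endothelial cells are known to make (-0.02 ± 0.15), were not called.

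The 33 C-type lectins were taken in 2 groups by known site of action. Of 16 lectins of the myeloid groups (Clec4, Clec5a, Clec10a and the Dectin-1 group of Clec7a, Clec9a and Clec12), 12 were called lower (75%, against 7.89% of all genes) and 0 higher (against 9.01%), with a median difference of -2.30. Of the other 17, 3 were called higher (17.6%, against 9.01% of all genes) and 1 lower (5.88%, against 7.89%). Their median was -0.01, beside -0.08 over all genes. Clec4e (Mincle), which senses mycobacterial lipid and cell death, measured 6.61, 4.25 and 4.59 in Scf-GFP+ replicates 1, 2 and 3, against 10.16, 10.31 and 10.18 in whole marrow replicates 1, 2 and 3. It was 33.5-fold lower (-5.07 ± 0.58, limma adjusted p = 0.000962). Clec4d, its partner at the cell surface, measured 7.33, 5.02 and 5.20 in Scf-GFP+ replicates 1, 2 and 3, against 10.38, 10.66 and 9.97 in whole marrow (-4.49 ± 0.60, limma adjusted p = 0.00196). The inhibitory Clec4a2 (DCIR) measured 6.58, 5.26 and 5.16 in Scf-GFP+ cells and 10.51, 9.97 and 10.18 in whole marrow (-4.55 ± 0.39). Clec5a, which couples to Tyrobp and Hcst, measured 4.20, 3.89 and 4.06 in Scf-GFP+ cells, against 7.47, 7.57 and 6.69 in whole marrow (-3.20 ± 0.24), with no raised replicate 1.

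Smaller or more variable decreases followed among the Clec4 genes. Clec4a3 differed by -3.19 ± 0.42 and Clec4a1 by -2.06 ± 0.42 (limma adjusted p = 0.0122). Whole marrow replicate 1 was the lowest marrow array for both, at 7.06 for Clec4a3 and 6.02 for Clec4a1, against at least 8.44 and 7.37 in the other two. Clec4b1 (-2.58 ± 0.18), Clec4b2 (-1.75 ± 0.23) and Clec4n, which encodes the fungal receptor Dectin-2 (-1.37 ± 0.22), were also called lower, and close copies in this group make the measured copy uncertain. With a term for sex-linked transcripts the calls of Clec4a1 (limma adjusted p = 0.102) and Clec4n (0.0546) were lost, with 0.00032 to 0.102 and 0.00183 to 0.0546 over all alternatives that tested them. Clec4a4 (-0.45 ± 0.18), Clec10a (-0.60 ± 0.22) and the Kupffer cell lectin Clec4f (-0.03 ± 0.11) were not called.

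In the Dectin-1 group, Clec12a, an inhibitory receptor that senses uric acid crystals, measured 6.46, 5.23 and 4.96 in Scf-GFP+ replicates 1, 2 and 3, against 10.67, 10.39 and 10.77 in whole marrow replicates 1, 2 and 3. The stromal arrays were well below the marrow arrays (33.4-fold lower, -5.06 ± 0.38, limma adjusted p = 0.000134). Clec7a, Dectin-1 itself, the receptor for fungal beta-glucan, measured 6.58, 6.22 and 6.38 in Scf-GFP+ cells and 9.23, 8.73 and 8.86 in whole marrow (-2.55 ± 0.17). Clec9a, a dead cell receptor of cross-presenting dendritic cells, measured 4.49, 4.17 and 4.12 in Scf-GFP+ cells, against 5.32, 5.603 and 5.75 in whole marrow (-1.30 ± 0.16), the smallest decrease among the members called. Clec12b differed by -0.19 ± 0.13 and was not called.

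**Figure D4:**
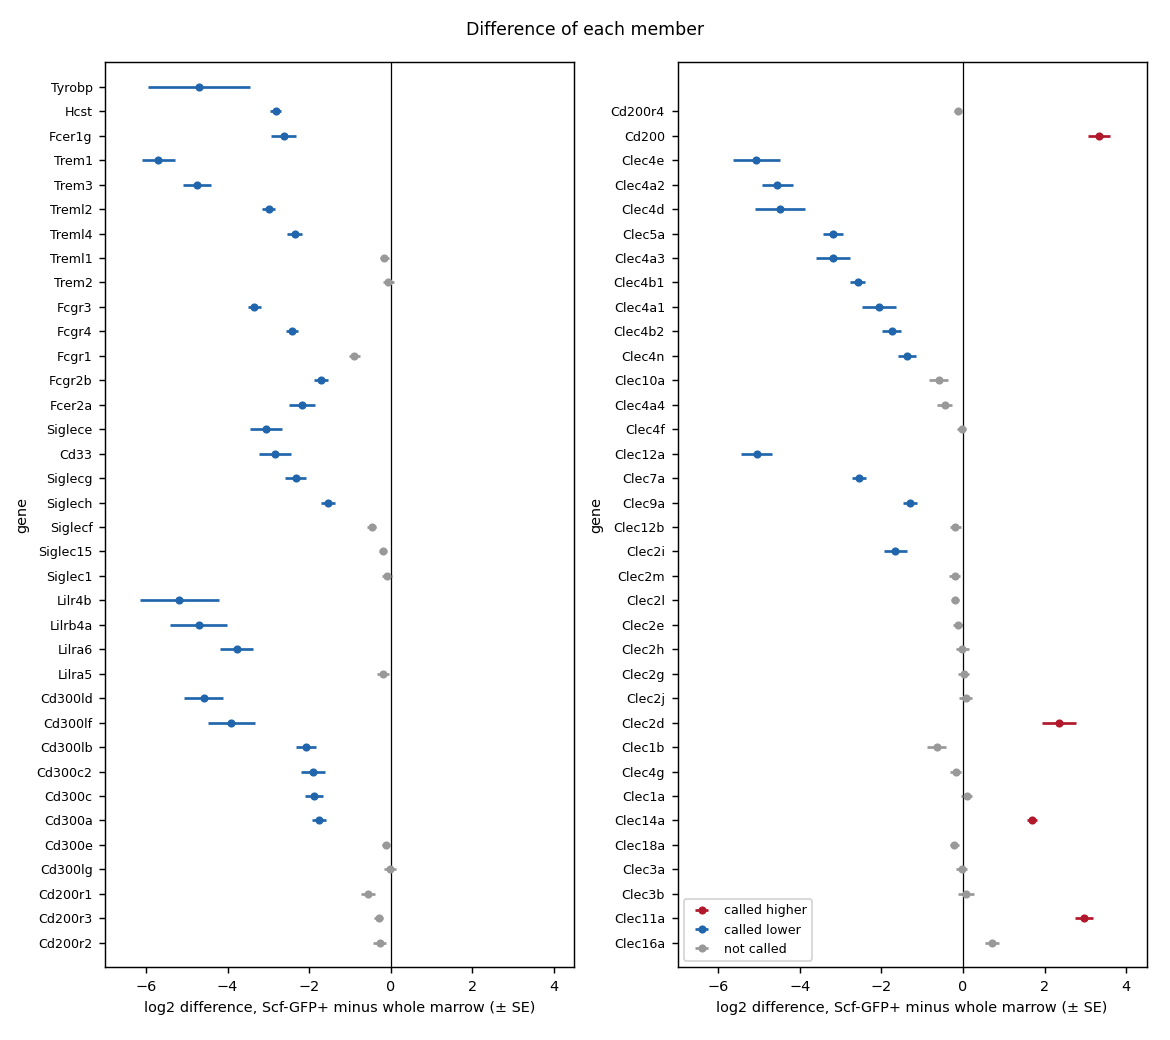
Points are log2 differences, Scf-GFP+ minus whole marrow, with limma's SE (n = 3 arrays per group) for all 71 members, ordered by role and then by size. The 37 members called lower (blue) reach -5.70 for Trem1, the 4 called higher (red) reach 3.34 for Cd200, and the 30 not called (grey) lie between -0.89 and 0.71.

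The 4 members called higher in Scf-GFP+ cells were Cd200, Clec11a, Clec2d and Clec14a. Cd200, a surface protein that restrains myeloid cells through Cd200r1, measured 11.13, 10.92 and 10.77 in Scf-GFP+ replicates 1, 2 and 3, against 8.15, 7.07 and 7.59 in whole marrow replicates 1, 2 and 3. It was evenly high in the stromal arrays and 10.1-fold higher than in marrow (3.34 ± 0.27, limma adjusted p = 0.000193). Its receptors measured low in both groups: Cd200r1, Cd200r2, Cd200r3 and Cd200r4 lay below the first quartile of each of the 6 arrays, where arrays lose resolution, and none was called. Cd200r1 measured 3.83, 3.71 and 3.87 in Scf-GFP+ cells and 4.33, 4.67 and 4.07 in whole marrow (-0.55 ± 0.17, limma adjusted p = 0.0514).

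Clec11a (osteolectin), a secreted lectin that promotes bone formation in mice, measured 9.23, 9.12 and 9.85 in Scf-GFP+ replicates 1, 2 and 3, against 6.56, 6.53 and 6.23 in whole marrow replicates 1, 2 and 3. The groups lay more than 2 apart, and the difference of 2.96 ± 0.22 was 7.79-fold (limma adjusted p = 0.000115). Itga11, the chain of its integrin receptor in mice, measured 9.20, 9.56 and 9.47 in Scf-GFP+ replicates 1, 2 and 3, against 6.203, 6.06 and 6.07 in whole marrow replicates 1, 2 and 3 and was called higher too (3.30 ± 0.13, limma adjusted p = 9.98e-06). The other lectins listed as secreted or matrix-bound did not follow: Clec3b (tetranectin, 0.07 ± 0.19), Clec3a (-0.04 ± 0.14) and Clec18a (-0.21 ± 0.10) were not called.

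Clec2d (Clr-b), a ligand that holds back natural killer cells through the mouse receptor Klrb1b, measured 7.60, 9.33 and 8.76 in Scf-GFP+ replicates 1, 2 and 3, against 6.21, 6.04 and 6.37 in whole marrow replicates 1, 2 and 3. Replicate 1 was here the lowest of the stromal arrays, at -1.44 relative to the mean of the other two, yet above every marrow array, and the difference was 2.36 ± 0.41 (limma adjusted p = 0.00632). Without Scf-GFP+ replicate 1 it was 2.84 (limma adjusted p = 0.000395, from 0.000395 to 0.0432 over all alternatives). Its relative Clec2i, a ligand of Klrb1f, went the other way, at 5.20, 4.94 and 5.20 in Scf-GFP+ cells and 6.94, 7.26 and 6.13 in whole marrow (-1.66 ± 0.29, limma adjusted p = 0.00585, lost at 0.0642 with a term for sex-linked transcripts and 0.000957 to 0.0642 over all alternatives). The other 6 genes of this group were not called, with differences from -0.21 ± 0.13 to 0.07 ± 0.16.

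Clec14a, which endothelial cells make during vessel growth, measured 7.28, 7.48 and 7.16 in Scf-GFP+ replicates 1, 2 and 3, against 5.71, 5.51 and 5.62 in whole marrow replicates 1, 2 and 3. Its arrays were tight within both groups, and it was 3.23-fold higher (1.69 ± 0.12, limma adjusted p = 0.000118). Of 7 endothelial markers 2 were called higher (28.6%, against 9.01% of all genes) and 1 lower (14.3%, against 7.89%). The 2 were Emcn (2.20) and Cdh5 (1.40), the second called in 8 of 14 alternatives. Pecam1 (-1.90) was the marker called lower, in 14 of 14 alternatives, and Kdr, Tek, Flt4 and Esam were not called. List means per array were 6.28 to 6.97 in Scf-GFP+ cells and 6.17 to 6.33 in whole marrow. The part of these markers in the Clec14a result was not tested. Mmrn2, a matrix ligand of Clec14a, differed by -0.19 ± 0.18 and was not called. The endothelial lectins Clec1a (0.09 ± 0.13) and Clec4g (-0.18 ± 0.14) and the platelet receptor Clec1b (-0.65 ± 0.23) were not called, nor was the platelet receptor's ligand Pdpn (-0.14 ± 0.23). Clec16a, an intracellular protein of mitochondrial turnover despite its name, was higher on all 3 Scf-GFP+ arrays by less than 2-fold (0.71 ± 0.16, limma adjusted p = 0.0191).

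Several families lie side by side on the chromosomes, and neighbours did not all move alike. In the order of the RefSeq gene table, with up to 2 other genes between some neighbours, the Trem genes run Trem1, Trem3, Treml4 and Treml2, all called lower, and then Trem2 and Treml1, neither called. In the Clec4 group of 9 neighbours, Clec4a4 was the exception, standing between Clec4a3 and Clec4b1, which were called lower. The 11 neighbours from Clec2i to Clec7a held 4 called lower (Clec2i, Clec12a, Clec9a, Clec7a), 1 called higher (Clec2d) and 6 not called. Over all genes, 7.89% were called lower and 9.01% higher. Tyrobp and Hcst are adjacent, and both were called lower.

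**Figure D5:**
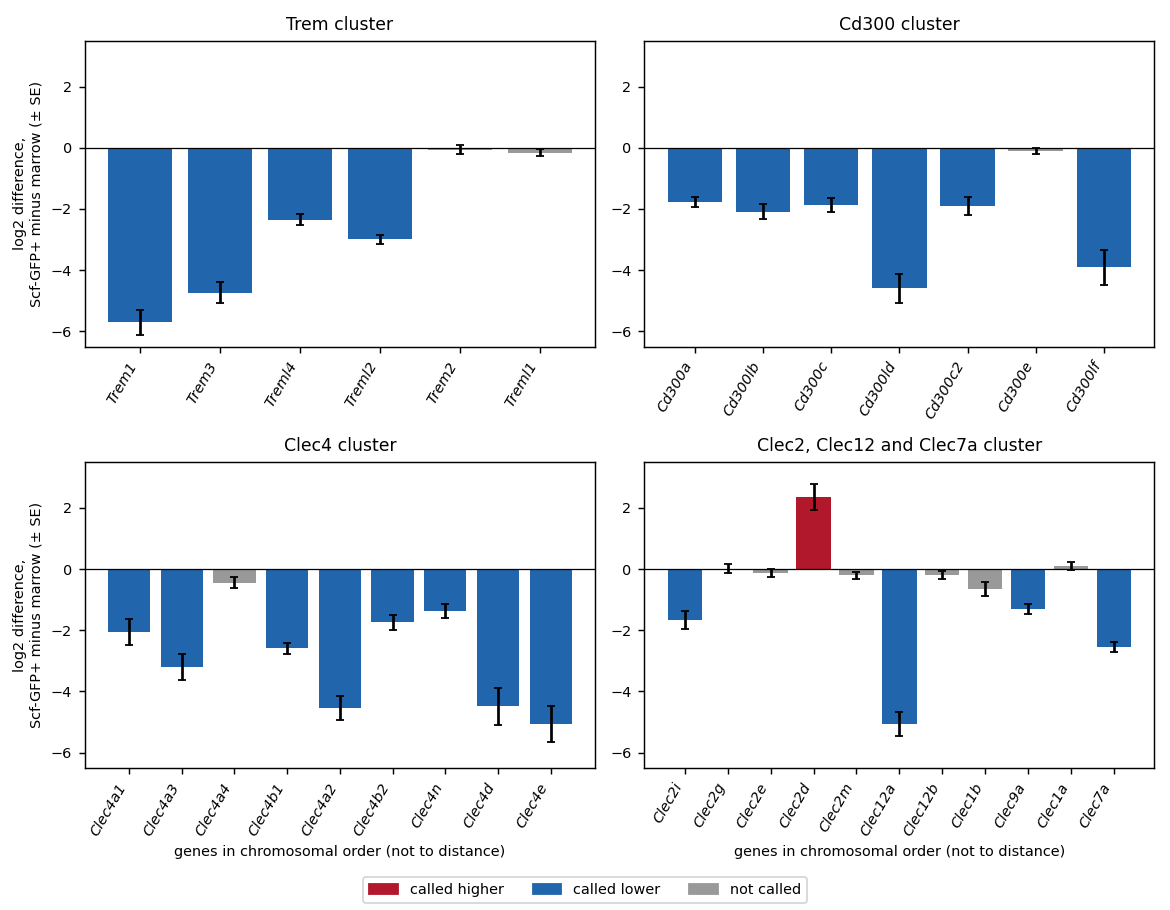
Bars are log2 differences, Scf-GFP+ minus whole marrow, with limma's SE (n = 3 arrays per group), for 4 chromosomal groups of members in gene order, not to distance. Trem2 and Treml1 at the right end of the Trem group are near 0, and Clec2d is the only red bar, between uncalled neighbours.

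Genes listed for the signalling of these receptors were taken separately, and 2 of them, Ptprc and Vav1, are also on the pan-haematopoietic list. Of 34 measured genes on the ITAM and ITIM lists, 23 were called lower (67.6%, against 7.89% of all genes) and 1 higher (2.94%, against 9.01%), with a median difference of -1.66. Among the 23 ITAM genes 16 were called lower, led by the kinases Btk (-4.29 ± 0.19) and Syk (-4.07 ± 0.24), the exchange factor Vav1 (-3.75 ± 0.19), the phospholipase Plcg2 (-3.38 ± 0.34) and the adaptor Blnk (-3.22 ± 0.25). Syk, which binds phosphorylated Tyrobp and Fcer1g, measured 6.44, 5.73 and 5.78 in Scf-GFP+ cells, against 10.02, 9.75 and 10.38 in whole marrow. Of 11 genes on the ITIM list 7 were called lower, among them the phosphatases Ptpn6 (-3.500 ± 0.26) and Inpp5d (-3.37 ± 0.25) and the adaptor Dok3 (-2.07 ± 0.13). These 7 include the pan-haematopoietic marker Ptprc, also a phosphatase (-3.52 ± 0.74). Ptprc was raised in Scf-GFP+ replicate 1 (8.65, 5.68 and 6.03 in replicates 1, 2 and 3), and its difference was -4.45 without that array. Rasa1, a regulator of Ras that is made far beyond blood cells, was called higher (1.34 ± 0.14).

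Of 13 reported binding partners of members, 2 were called higher (15.4%, against 9.01% of all genes), 5 lower (38.5%, against 7.89%) and 6 neither. Apoe, a lipoprotein that binds Trem2, measured 12.55, 12.60 and 13.12 in Scf-GFP+ replicates 1, 2 and 3, against 9.27, 9.54 and 9.82 in whole marrow replicates 1, 2 and 3. It was higher in every stromal array (3.21 ± 0.21, limma adjusted p = 7.28e-05), whereas Trem2 itself did not pass. Pglyrp1, a neutrophil granule protein and ligand of Trem1, measured 9.20, 7.28 and 7.85 in Scf-GFP+ replicates 1, 2 and 3, against 12.07, 12.06 and 12.04 in whole marrow (-3.95 ± 0.45), and was also raised in replicate 1. Cd24a, a partner of Siglecg, and Spn, a partner of Siglec1, were called lower, with differences of -3.90 ± 0.61 and -1.59 ± 0.22. Cd24a was raised in Scf-GFP+ replicate 1 (9.99, 8.20 and 7.37 in replicates 1, 2 and 3), and its difference was -4.64 without that array. Klrb1f, the receptor of Clec2i, and Klrk1, which signals through Hcst, were called lower, with differences of -1.21 ± 0.19 and -1.06 ± 0.31. The limma adjusted p of Klrk1 was 0.0471, its call was kept in 4 of 13 alternatives (0.0152 to 0.229 over them), and that of Klrb1f was lost with the sex-linked term (0.0557). By contrast, Klrb1b, the receptor of Clec2d, differed by -0.31 ± 0.11 and was not called.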

How the data were processed

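The authors deposited 1 table of log2 intensities per probe set for the 6 arrays. RMA, affy and limma are named, without versions or roles, per the submitters' processing notes. The array annotation's build is not given in the sources used here. RNA of 5000 cells was amplified before labelling, per the labels' protocols, which limits how exactly large differences are sized. Array medians lay between 6.56 and 6.63, and the number of arrays limits the precision.

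The log2 values were used as deposited. Of 28940 rows, 21789 had exactly 1 symbol, which gave 19938 genes. The row with the highest mean stood for the gene, a choice that arose for 1 member. Groups were compared with limma 3.58.1 (lmFit, eBayes) in R 4.3.3 without covariates, with Benjamini-Hochberg adjustment over all genes. The fit was tested on simulated data. Members, gene lists and alternatives were chosen with earlier results of these data known. Values on every array are given for the adaptors, Trem1, Clec11a, Cd33, members called higher and up to 4 members called lower per role. Those of Trem2, Cd200r1, Itga11, Apoe, Syk, Pglyrp1, Cd24a and Ptprc, outside this rule, were added after the values were seen. Alternatives left out single arrays or the dimmest 30% of genes, or changed moderation, scaling, row choice, the call rule, a replicate block and a term for sex-linked transcripts. Promoter windows are RefSeq's (GRCm38.p6). Deviations from the group means correlated at -0.06, -0.02 and 0.07 for same-numbered arrays, so the numbers were not taken as pairs.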

Additional observations from a re-analysis of the deposited data

How the results depend on the processing

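All 41 called members kept their direction in each of the 14 alternatives that tested them, and 37 also kept their call in each. The number of members called higher was 4 throughout, and 5 without a minimum difference (Clec16a added). The number called lower was 36 to 37 with single arrays left out, where Tyrobp alone was lost, 39 without a minimum difference (Fcgr1 and Siglecf added), 33 with a term for sex-linked transcripts and 31 without the dimmest 30% of genes, where Clec4b1, Clec4b2, Clec4n, Clec5a, Clec9a and Fcer2a were not tested. The members lost with the sex-linked term were Clec2i, Clec4a1, Clec4n and Tyrobp. The term follows Xist, which set Scf-GFP+ replicates 1 and 2 apart from Scf-GFP+ replicate 3 and all marrow arrays. That model therefore rests on Scf-GFP+ replicate 3 against marrow. It also called 2 signalling genes higher in place of 1 (Dok1 added), and 18 lower in place of 23. Over the other alternatives the lower count of signalling genes ranged from 20 to 28.

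The replicate block, which uses the shared replicate numbers, left 4 members called higher and 37 lower. No member that was not called became called under any alternative except the one without a minimum difference. The 8 members that lay below the first quartile on all 6 arrays are limited by the low signal. Fcgr4, Fcer2a, Clec5a, Clec4a1, Clec4a3, Clec4b1, Clec4b2, Clec4n and Clec9a, all called lower, lay below it on the 3 Scf-GFP+ arrays. The sizes of their differences are limited in the same way.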
